A study of Mus musculus with 14 samples.

Results

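Class II molecules of the major histocompatibility complex carry peptides from engulfed material to the cell surface, where CD4+ T cells read them. The expression of 4 genes of this route was examined across 14 libraries of mouse macrophages with and without exposure to IL4: Cd74, H2-Aa, Ciita and Ifi30. They were taken by name as the rows of those symbols, 4 of the 9474 genes listed in each of the 2 deposited tables, and all 4 were present in both.

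H2-Aa encodes the alpha chain of the class II molecule I-A. Cd74 encodes the invariant chain, which fills the peptide groove of new class II molecules and guides them to endosomes. Ciita encodes the co-activator that assembles on class II promoters and sets the rate of their transcription. Ifi30 encodes GILT, a thiol reductase of the endosomal compartment that opens disulfide bonds of engulfed proteins. Macrophages express class II genes at a level that cytokines change, interferon gamma being the best known inducer and IL4 another.

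The study concerned IL4 in the engulfment of leukemia cells by macrophages. In the culture experiment, monocytes purified from the bone marrow of C57BL/6J mice were grown for 7 days with the growth factor CSF1, in 4 control libraries without IL4 and 4 libraries with murine IL4 at 20 ng/mL throughout. In the marrow experiment, mice received acute myeloid leukemia (AML) cells carrying either an IL4 cDNA or an empty vector, and cells positive for the surface protein F4/80 were sorted from their bone marrow 12 days later, giving 3 IL4 and 3 control libraries. All marrow libraries, controls included, thus came from mice bearing leukemia. The source of IL4 there was the leukemia cells, so its concentration was not set by the experimenter. No label says that each library of a group is its own culture or animal, and the p-values therefore rest on the spread among these libraries, which may be technical.

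The genes lie apart in the mouse genome (GRCm38, mm10, GENCODE M21). H2-Aa is at chr17:34282744-34287823 on the minus strand, within the class II stretch of the major histocompatibility complex. Cd74 is at chr18:60803848-60812652 on the plus strand and contains the microRNA gene Mir5107. Ciita is at chr16:10480059-10528418 on the plus strand and overlaps Dexi on the opposite strand. Ifi30 is at chr8:70762774-70766663 on the minus strand, where that release lists it as a processed transcript, and overlaps 6330537M06Rik on the opposite strand. The strand setting of the counting is not given in the sources used here, so reads of Ciita and Ifi30 cannot be told from those of their overlapping partners. None of these 3 overlapping genes has a row of its own in the tables. The strand limit also holds for other class II genes used below. H2-DMa overlaps Brd2 on the opposite strand and further genes, and H2-Eb1 overlaps the antisense gene Gm20513.

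The deposited values are on a log2 scale, from which whole reads could be read back for 9413 genes (99.4%), the 4 genes included. Libraries held between 510824 and 805829 such reads, and the median gene had 23 to 41 of them. The IL4 target Retnla, a secreted protein of alternatively activated macrophages, had 0 reads in every control library of both experiments, 4641 to 11618 in the IL4 cultures and 895 to 3037 in the IL4 marrow libraries. Emr1, which encodes F4/80, had 1511 to 2415 reads in culture controls and 28 to 65 in marrow controls. The neutrophil markers S100a8, S100a9 and Ngp summed to 6101 to 6911 reads per 100000 in marrow controls and 4437 to 5485 in IL4 marrow, against at most 5.94 in any culture library, while 11 macrophage markers summed to 67.7 to 85.9 and 51.8 to 122 in these marrow groups, to 1140 to 1292 in culture controls and to 594 to 766 in IL4 cultures. Neutrophil marker reads were thus abundant in every sorted marrow library and nearly missing in culture. In such bulk samples, fewer cells of a type and less RNA per cell cannot be told apart.

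Class II promoters share an upstream module whose parts are bound by the factors RFX, CREB and NF-Y, on which CIITA docks. NF-Y binds the Y box, with the core CCAAT, and CREB binds the X2 box, related to the cyclic AMP element with the core TGACG. RefSeq promoter entries (GRCm38.p6) were matched for 2 of the 4 genes, H2-Aa and Ifi30; Cd74 and Ciita had none. The 250 bases before the start of each are shown because H2-Aa was called in both experiments and Ifi30 in culture, together with the 100 bases before H2-Eb1, a class II beta chain gene that moved with H2-Aa. All read 5′ to 3′ on the gene's own strand, and capitals mark matches, on either strand, to the Y box core, the X2 core or the E box. H2-Aa is the stretch chr17:34287824-34288073 (minus strand), H2-Eb1 is chr17:34305767-34305866 (plus strand) and Ifi30 is chr8:70766664-70766913 (minus strand).
H2-Aa: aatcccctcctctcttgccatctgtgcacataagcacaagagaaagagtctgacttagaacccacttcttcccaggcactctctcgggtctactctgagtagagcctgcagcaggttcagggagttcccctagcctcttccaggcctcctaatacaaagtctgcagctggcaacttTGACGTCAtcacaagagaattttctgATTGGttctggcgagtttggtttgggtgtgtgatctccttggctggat
H2-Eb1: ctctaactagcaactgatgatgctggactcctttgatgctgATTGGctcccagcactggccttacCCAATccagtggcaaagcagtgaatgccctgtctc
Ifi30: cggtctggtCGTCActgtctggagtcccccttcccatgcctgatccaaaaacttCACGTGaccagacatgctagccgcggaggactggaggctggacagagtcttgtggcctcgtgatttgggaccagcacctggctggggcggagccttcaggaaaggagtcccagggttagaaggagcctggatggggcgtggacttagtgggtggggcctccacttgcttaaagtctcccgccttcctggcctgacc

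In H2-Aa, TGACG matched on both strands, in overlapping positions from 74 to 67 bases before the start, and CCAAT matched on the reverse strand 48 to 44 bases before it. H2-Eb1 had CCAAT on the reverse strand 59 to 55 bases before its start and on the forward strand 35 to 31 bases before it. The Ifi30 stretch held the E box, CACGTG, 196 to 191 bases before the start and the X2 core, on the reverse strand, 241 to 237 bases before it, with no match to the Y box. Of 32851 promoters of the same length, 33.8% held the Y box core, 17.8% the X2 core and 6.02% the E box, so matches to the first pair are common. The STAT6 element, bound by the factor that IL4 activates and written as a TTC and a GAA with 4 bases between them, was found in 5.85% of promoters and in neither the H2-Aa nor the Ifi30 stretch. These matches are letters in a window and no measure of binding.

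All 4 genes rose with IL4 in culture. Cd74 and H2-Aa rose most, about 15-fold and 14-fold, Ciita about 6-fold and Ifi30 about 2-fold, and for each the lowest IL4 library was above the highest control. By limma with Benjamini-Hochberg adjustment over all genes, a gene was called at an adjusted p below 0.05. Calls of a rise covered 7.96% of the 9474 genes in culture, calls in either direction 40.5%, and groups that did not overlap with IL4 higher 7.49%. The median log2 fold change of all genes in culture was -0.36, and 754 genes were called higher against 3084 lower. After each library was centred on its own median this split was 1365 against 1205, with the 4 genes at 4.29, 4.18, 3.02 and 1.56 and all called.

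Cd74 gave 33.3, 18.4, 31.1 and 99.1 reads per 100000 in culture control libraries 1 to 4, and 438, 483, 503 and 943 in IL4 libraries 1 to 4. Library 4 was the highest of each group, and the groups were far apart. The log2 fold change was 3.92 ± 0.44 (SE, 95% interval 2.95 to 4.90), a ratio of 15.2 (7.72 to 29.8), with an adjusted p of 0.000124 by limma. It was the 38th largest rise of all genes.

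H2-Aa gave 8.19, 5.01, 7.33 and 31.7 reads per 100000 in the culture controls and 106, 108, 127 and 268 in the IL4 cultures. Library 4 again stood above the other controls and above the other IL4 libraries. The log2 fold change was 3.82 ± 0.51 (SE), a ratio of 14.1 (6.46 to 30.7), with an adjusted p of 0.000355 by limma.

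Ciita was read less deeply, with 7 to 31 reads in the control cultures and 73 to 181 in the IL4 cultures. Per 100000 reads this was 2.23, 1.25, 1.92 and 4.89 in controls 1 to 4, and 12.6, 9.84, 12.5 and 30.2 with IL4. Library 4 was the highest of both groups for the co-activator too. The log2 fold change was 2.65 ± 0.42 (SE), a ratio of 6.29 (3.28 to 12.0), with an adjusted p of 0.00100 by limma.

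Ifi30 differed in having nearly equal controls, at 21.7, 21.5, 22.3 and 20.5 reads per 100000. The IL4 cultures had 51.9, 59.7, 47.9 and 39.6. Here library 4 was the lowest of both groups. The log2 fold change of 1.19 ± 0.13 (SE), a ratio of 2.29 (1.86 to 2.81), had an adjusted p of 0.000123 by limma, close to that of Cd74 for a rise far smaller, since its standard error was smaller.

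**Figure D1:**
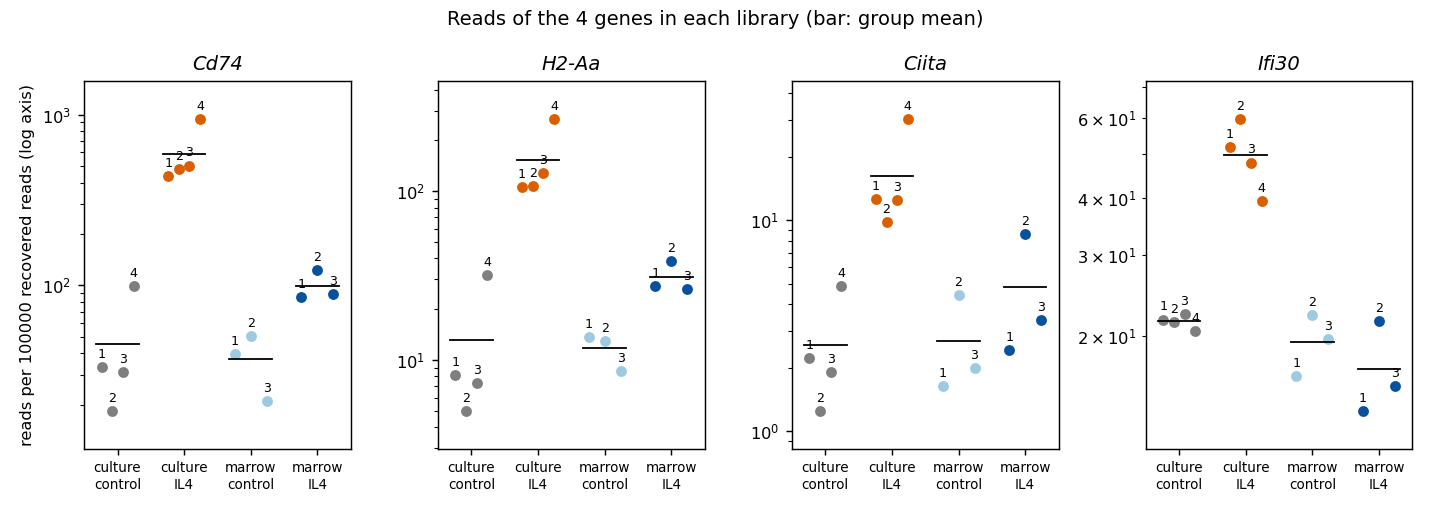
Reads per 100000 recovered reads (log axis, a separate scale in each panel) of Cd74, H2-Aa, Ciita and Ifi30 in the 14 libraries, by group; digits are replicate numbers and bars are group means. All IL4 cultures lie above all control cultures in each panel, and the marrow groups overlap for Ciita and Ifi30.

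In the marrow, Cd74 and H2-Aa rose about 3-fold, and Ciita and Ifi30 did not pass the test. Thus 2 of the 4 genes were called higher, where 6.7% of all genes were, and calls in either direction made up 18.2%. The same 2 genes had groups that did not overlap, with IL4 higher, as did 15.5% of all genes.

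Cd74 gave 39.7, 50.8 and 21.1 reads per 100000 in marrow controls 1 to 3 and 85.2, 122 and 88.5 in the IL4 marrow libraries. Every IL4 library was above every control. The log2 fold change was 1.47 ± 0.29 (SE, 95% interval 0.81 to 2.13), a ratio of 2.77 (1.76 to 4.36), with an adjusted p of 0.00817 by limma.

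H2-Aa gave 13.7, 12.98 and 8.61 reads per 100000 in the controls and 27.4, 38.8 and 26.4 with IL4, again without overlap. The log2 fold change was 1.38 ± 0.22 (SE), a ratio of 2.61 (1.84 to 3.70), with an adjusted p of 0.00304 by limma.

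Ciita had 10, 27 and 13 reads in the marrow controls and 13, 44 and 26 in the IL4 libraries, or 1.65, 4.44 and 2.00 against 2.44, 8.61 and 3.37 per 100000. Library 2 was the highest of both groups, and the groups overlapped. The log2 difference was 0.73 ± 0.50 (SE) with a 95% interval from -0.39 to 1.85 and an adjusted p of 0.349 by limma. A ratio between 0.764 and 3.61 thus remained possible. Without IL4 library 2 the difference was 0.21, and without control library 2 it was 1.15, neither of them called.

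Ifi30 gave 16.3, 22.2 and 19.7 reads per 100000 in the marrow controls and 13.7, 21.5 and 15.5 with IL4, overlapping groups in which library 2 was again the highest. The log2 difference was -0.22 ± 0.19 (SE, 95% interval -0.65 to 0.21), with an adjusted p of 0.474 by limma. The interval leaves out a rise as large as that in culture.

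The difference between the culture and the marrow response was tested as an interaction over the 14 libraries, in which 6.45% of all genes were called higher in culture and 23.1% in either direction. Of the 4 genes 3 were called, each with the larger response in culture. The difference was 2.45 ± 0.64 (SE, adjusted p 0.0129, limma) for Cd74, 2.43 ± 0.68 (adjusted p 0.0198) for H2-Aa and 1.41 ± 0.24 (adjusted p 0.000840) for Ifi30. For Ciita it was 1.92 ± 0.73 (95% interval 0.36 to 3.48) with an adjusted p of 0.0721, not called. The Ciita difference was called without culture control library 4 (2.28, adjusted p 0.0252, limma) and without marrow IL4 library 2 (2.44, adjusted p 0.0265). In the other 12 of 14 fits that left out 1 library it was not called, down to 1.5 without marrow control library 2 (adjusted p 0.174). Cell source, exposure and the makeup of the sorted cells all differed between the experiments and cannot be told apart here.

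**Figure D2:**
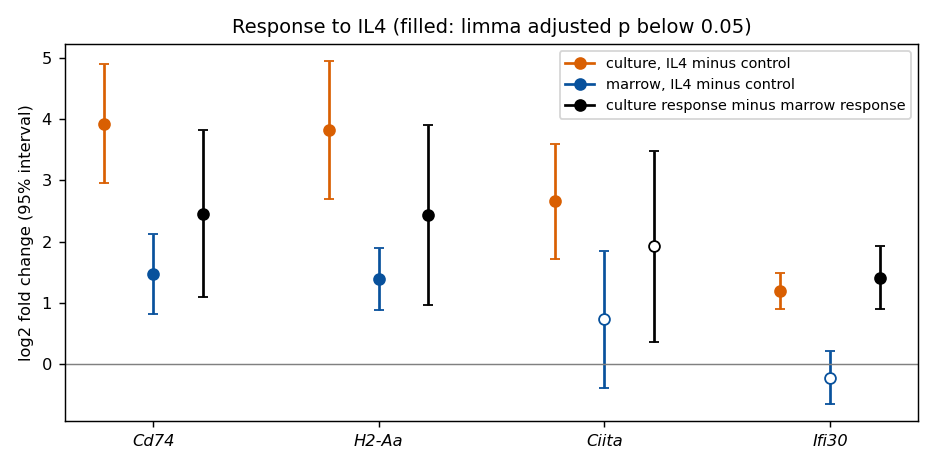
Log2 fold change with 95% interval (vertical axis) of the 4 genes for IL4 in culture, for IL4 in marrow, and for the culture response minus the marrow response; filled points had a limma adjusted p below 0.05. Ciita and Ifi30 in marrow, and the difference for Ciita, are open points, and the other 9 are filled.

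The library constants in both tables followed 1 scale, so the group levels of a gene can be set in order, as a description without a test. Mean log2 values of Cd74 were 11.98 ± 0.50 (SD, n = 4) in IL4 cultures, 9.50 ± 0.29 (n = 3) in IL4 marrow, 8.06 ± 1.01 (n = 4) in control cultures and 8.03 ± 0.65 (n = 3) in control marrow. The IL4 cultures stood clear of all other libraries. The IL4 marrow libraries, from 9.31 to 9.84, were overlapped by control culture 4 at 9.46 alone, and the control marrow libraries lay within the range of the control cultures.

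H2-Aa had the order IL4 culture at 8.71 ± 0.63 (SD, n = 4), IL4 marrow at 6.56 ± 0.31 (n = 3), control marrow at 5.17 ± 0.36 (n = 3) and control culture at 4.89 ± 1.15 (n = 4). Control culture 4, at 6.55, again lay among the IL4 marrow libraries, and the control groups overlapped. Ciita ran from 5.57 ± 0.71 (SD, n = 4) in IL4 cultures to 3.82 ± 0.93 (n = 3) in IL4 marrow, 3.09 ± 0.73 (n = 3) in control marrow and 2.92 ± 0.78 (n = 4) in control cultures. The lower 3 groups of Ciita all overlapped.

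Ifi30 was high in the IL4 cultures at 8.99 ± 0.25 (SD, n = 4). The other groups, at 7.80 ± 0.056 in control cultures (n = 4), 7.70 ± 0.22 in control marrow (n = 3) and 7.48 ± 0.34 in IL4 marrow (n = 3), did not differ beyond their spread. Levels of different genes are not compared on this scale, which carries a constant of its own for each gene.

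Within the culture groups, library 4 was the highest for all 7 class II pathway genes, and the order of the others varied by gene. Cd74, H2-Aa, Ciita, H2-Ab1 and H2-Eb1 ranked the controls as 4, 1, 3 and 2 from high to low. The highest control exceeded the lowest 5.28-fold for Cd74, 6.15-fold for H2-Aa and 3.65-fold for Ciita, and 1.10-fold for Ifi30. H2-DMa had the order 4, 1, 2 and 3 there and H2-DMb1 4, 3, 1 and 2. In the IL4 cultures Cd74, H2-Aa, H2-Ab1, H2-Eb1 and H2-DMa had the order 4, 3, 2 and 1, Ciita 4, 1, 3 and 2, and H2-DMb1 4, 2, 3 and 1. With both libraries numbered 4 left out, an alternative added after their values were seen, the culture response was 4.15 for Cd74, 4.06 for H2-Aa, 2.67 for Ciita and 1.27 for Ifi30 on the log2 scale, all called. Itgax, a dendritic cell and activation marker, also varied among the culture controls, from 11 to 372 reads. The part of such markers in the order of libraries was not tested.

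**Figure D3:**
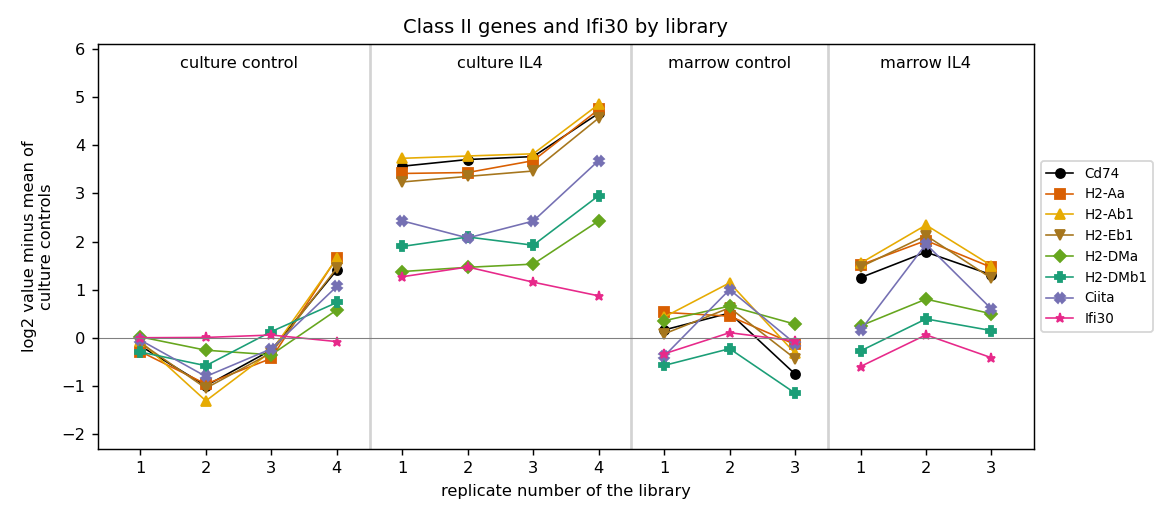
Log2 value minus the mean of the 4 culture controls (vertical axis) for 7 class II pathway genes and Ifi30 in each library (horizontal axis, replicate number within group). The lines of Cd74, H2-Aa, H2-Ab1 and H2-Eb1 nearly coincide, Ciita and the H2-DM genes lie lower in the IL4 cultures, and Ifi30 is flat over the culture controls.

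The distance between H2-Aa and Cd74 within a library was nearly fixed. It spanned 0.88 on the log2 scale over the 14 libraries, where Cd74 itself spanned 5.65, H2-Aa 5.70, Ciita 4.48 and Ifi30 2.07. In culture IL4 moved H2-Aa against Cd74 by -0.11 (exact permutation p 0.457, two-sided, 4 against 4). Ciita moved by -1.27 against Cd74 and -1.16 against H2-Aa, and Ifi30 by -2.73 and -2.62. Each of these 4 shifts separated the groups without overlap and had an exact permutation p of 0.0286, the smallest that 4 against 4 allows, or 0.0857 after adjustment over the 12 pair tests. The smallest adjusted p that this family allows is 0.0571, so no pair could pass and the values are a description. In marrow, where 3 against 3 cannot go below 0.1, the shift of Ifi30 against Cd74 was -1.69 and against H2-Aa -1.60, each with an exact permutation p of 0.1 and an adjusted p of 0.171.

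Genes with the most similar pattern were ranked by the root mean square (RMS) log2 difference over the 14 libraries, each gene set relative to its mean in the control group of its table. For Cd74 the nearest were H2-Ab1 (RMS 0.169), H2-Aa (0.186), H2-Eb1 (0.193), the purinergic receptor P2ry1 (0.648) and the integrin subunit Itgb3 (0.649). The median RMS to Cd74 was 2.51 over all other genes, with predicted genes left out of the ranking. H2-Aa had Cd74 (0.186), H2-Eb1 (0.195), H2-Ab1 (0.261), P2ry1 (0.596) and the transcription factor Bhlhe40 (0.695). A wide gap thus separated the classical chains and the invariant chain from the next gene.

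Ciita lay closest to H2-DMb1 (RMS 0.451), P2ry1 (0.590), Fam198b (0.591), the chemokine Ccl6 (0.664) and transferrin, Trf (0.686). It ranked 12th among the neighbours of Cd74, with an RMS of 0.851, and Cd74 ranked 37th among those of Ciita. Ifi30 was nearest to Rars (0.171), Afg3l2 (0.178), Bcap31 (0.179), the glutathione peroxidase Gpx1 (0.193) and Mtss1 (0.203), none of them class II genes. It was 340th among the neighbours of Cd74, with an RMS of 1.78, below the median of 2.51. Among the neighbours of Ifi30, Cd74 was 8564th, above the median RMS to Ifi30 of 0.956. This measure also counts the size of a response, which was smaller for Ifi30, so the ranks do not compare regulation.

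The other class II genes moved as H2-Aa and Cd74 did in culture and less widely in marrow. All 3 measured classical chains rose in both experiments: H2-Ab1, the I-A beta chain, by 4.04 in culture and 1.38 in marrow on the log2 scale, and H2-Eb1, the I-E beta chain, by 3.65 and 1.52. The marrow call of H2-Ab1 (adjusted p 0.0275, limma) was lost without IL4 library 2 (0.0797), control library 1 (0.0714) or control library 3 (0.0744). The H2-DM genes encode the exchange factor that removes the invariant chain remnant from the groove. H2-DMa rose by 1.70 and H2-DMb1 by 2.22 in culture, and in marrow their values were 0.08 (adjusted p 0.834) and 0.74 (adjusted p 0.0643), not called. H2-Aa, Cd74 and these 4 genes all had a larger response in culture than in marrow by limma. The H2-Eb1 difference of 2.14 (adjusted p 0.034) was lost in 8 of the 14 fits that left out 1 library, and that of H2-DMb1 (1.48, adjusted p 0.03) in 6. That of H2-Ab1 was lost in 1, without marrow control 2 (adjusted p 0.0578).

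Genes of class II transcription did not rise as a group. Of 18 measured, 2 rose and 6 fell in culture, with a median log2 fold change of -0.30 beside -0.36 for all genes, where calls of a fall made up 32.6% of all genes. Besides Ciita, the factor Irf4, which acts in alternative macrophage activation, rose by 3.32, from 4 to 11 reads in controls to 59 to 71 with IL4. Irf1, an interferon-induced activator of the Ciita gene, fell by 1.42 and Irf8 fell by 0.82. The histone acetyltransferases Ep300 and Crebbp (log2 changes of -0.86 and -0.64) fell too, as did Creb1 and the remodeller Smarca4 (-0.54 each). After centring 4 rose and 2 fell, and Creb1, Crebbp, Smarca4 and Irf8 were no longer called. Of the 8 fits that left out 1 library, Creb1 lost its call in 3 and Crebbp in 5.

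In marrow none of the 18 rose and 4 fell, with a median of -0.20 beside -0.06 for all genes, of which 11.5% were called lower. Irf4 fell by 1.54, opposite to culture, and Irf8 (-2.19), Smarca4 (-0.96) and Rfxap, a subunit of RFX (-1.20), fell with it. The Rfxap call was lost in 5 of 6 fits that left out 1 library, all but that without IL4 library 1. The response of Irf4 differed between the experiments by 4.87 (adjusted p 1.36e-06, limma). The other subunits of RFX and NF-Y (Rfx5, Rfxank, Nfya, Nfyb and Nfyc) passed the test in neither experiment.

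Ifi30 belongs to the endosomal processing list, of which all 10 genes were measured. In culture 5 rose and 1 fell, with a median of 0.60, where 7.96% of all genes rose and 32.6% fell. The proteases Ctss, which trims the invariant chain, Ctsl and Ctsz rose by 1.48, 1.49 and 1.45, the protease inhibitor Cst3 by 0.87, and Sppl2a, which cleaves the last membrane stub of the invariant chain, fell by 0.43, a call lost on centring. In marrow 2 rose and 4 fell, with a median of -0.24, where 6.7% of all genes rose and 11.5% fell. Ctsl rose there by 1.88 and Ctsd by 1.21, while Ctss (-1.17), Ctsh (-1.37), Ctsb (-0.54) and Sppl2a (-0.46) fell. Ctss thus moved in opposite directions in the 2 experiments, and the difference of 2.65 was called (adjusted p 0.00066, limma). After centring, 6 rose and none fell in culture, and 2 rose and 2 fell in marrow. The marrow fall of Ctss was lost without control library 1 (adjusted p 0.0521) or control library 2 (0.0582). Those of Ctsb and Sppl2a were lost on centring and in 5 of 6 fits that left out 1 library, all but that without IL4 library 3 for Ctsb and IL4 library 2 for Sppl2a.

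Of 5 measured genes of class II turnover none rose and 2 fell in culture, a count near the 32.6% of all genes that fell. March1, the ubiquitin ligase that marks class II molecules for destruction, fell by 0.47, a call lost on centring and in 3 of 8 fits that left out 1 library, and Il10ra, a receptor chain of IL10, fell by 1.33. In marrow, where 6.7% of all genes rose and 11.5% fell, March1 (-1.17), March8 (-0.77) and Il10ra (-2.56) fell. The March1 call there was lost on centring and in 5 of 6 fits that left out 1 library, all but that without IL4 library 3, and the March8 call in 4, without IL4 library 3 or any 1 control. Cd83, a surface protein that counters March1, rose there by 2.85, from 1 to 5 reads in controls to 8 to 33 with IL4, and by 3.49 when control library 2 was left out. After centring 1 rose and 1 fell in culture, and 1 rose and 2 fell in marrow.

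**Figure D4:**
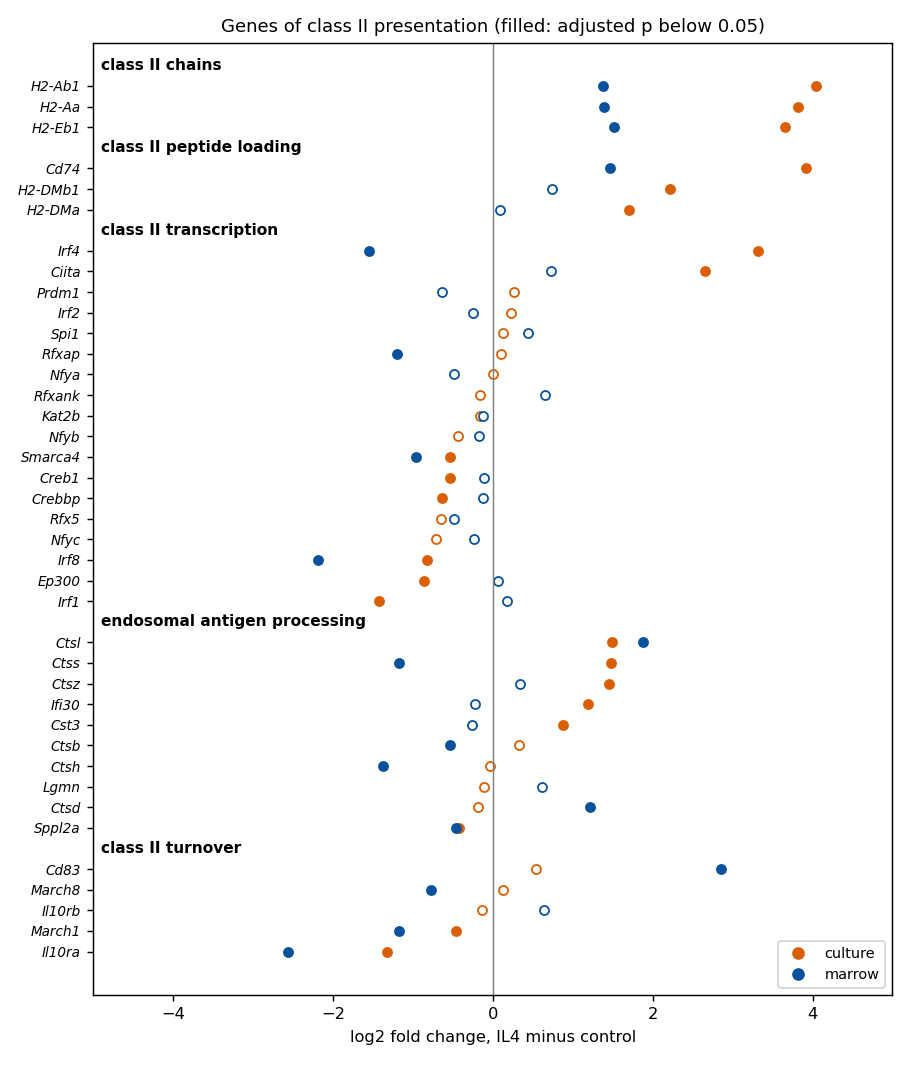
Log2 fold change, IL4 minus control (horizontal axis), of each measured gene in 5 lists of the class II route, for culture and marrow; filled points had a limma adjusted p below 0.05. The chains and Cd74 are filled and positive in both experiments, Irf4 and Ctss point in opposite directions, and most transcription factors lie near 0 or below it.

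The stretch of chromosome 17 that holds H2-Aa also holds genes of the class I route, between H2-DMb1 and H2-Ab1. From the start of H2-DMa to the end of H2-Eb1 (chr17:34119541-34316674, 197 kb), a region chosen after the values were seen, 9 of 11 protein-coding genes of the annotation had values. The H2 genes on both sides rose in culture, while those between, which make peptides for class I molecules and carry them into the endoplasmic reticulum, did not: Psmb9 (-1.03), Tap1 (-0.74) and Psmb8 (-0.59) fell, and Tap2 was at -0.35 (adjusted p 0.106, limma). The median of all genes in culture was -0.36, and the falls of Psmb9, Tap1 and Psmb8 were no longer called after centring. In marrow Tap2 rose by 0.46 and the other 3 did not pass the test.

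**Figure D5:**
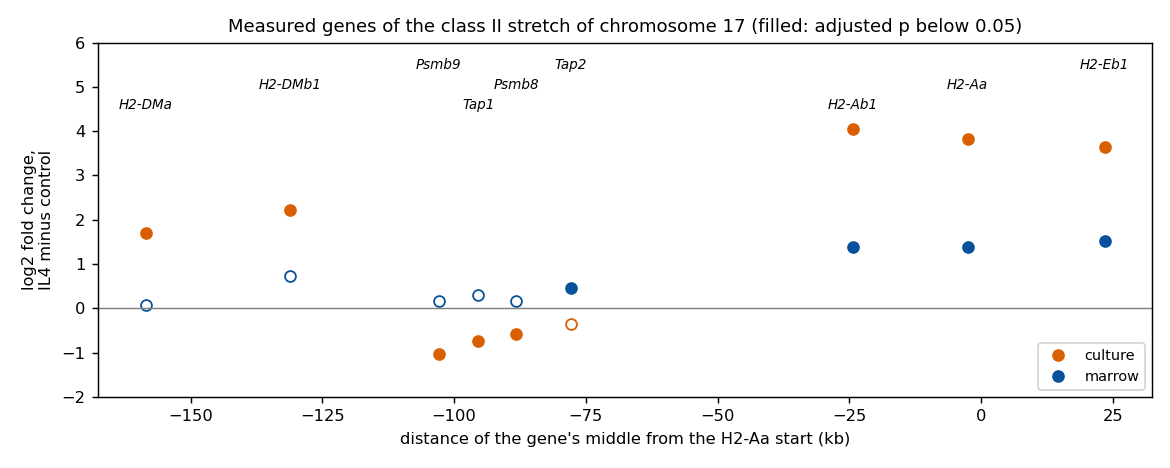
Log2 fold change, IL4 minus control (vertical axis), of the 9 measured genes of the class II stretch, placed by the distance of their middle from the H2-Aa start in kb; filled points had a limma adjusted p below 0.05. In culture the 5 H2 genes lie at 1.70 or above and the 4 class I processing genes between them lie below 0.

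Over the wider class I list 1 of 20 measured genes rose and 8 fell in culture (median -0.38), where 32.6% of all genes fell with a median of -0.36, so the list was near the background. In marrow 5 rose and none fell (median 0.27, against -0.06 for all genes, of which 6.7% rose and 11.5% fell). After centring these counts were 4 and 2 in culture and 6 and 0 in marrow. Nlrc5, the class I counterpart of Ciita, fell by 2.67 in culture and was at 0.01 in marrow (adjusted p 0.977, limma). H2-M3 fell by 1.28 and H2-T23 rose by 1.14 in culture. H2-K1, H2-D1 and H2-Q4 rose by 1.09, 0.67 and 1.20 in marrow, the last not called without control library 1. Class I genes are close copies of one another, so the split of reads among them is uncertain.

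Interferon gamma is the textbook inducer of Ciita, and of 13 measured genes of its route 3 rose and 5 fell in culture (median -0.47), where 7.96% of all genes rose and 32.6% fell. In marrow 2 rose and 1 fell (median 0.23), where 6.7% and 11.5% did. Jak2 rose in both, by 1.42 and 0.76. Gbp2, a guanylate binding protein, rose by 2.44 in culture, whereas in marrow Ifngr1 rose by 1.31 and Gbp3 fell by 1.52. Jak2 and Gbp2, the genes named for culture, rose, while the 5 that fell there are counted but not named. The Gbp3 call was lost in 7 of 12 alternatives, among them centring and each fit without 1 control library or without IL4 library 3. After centring 4 rose and 3 fell in culture, and 2 rose and none fell in marrow.

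Class II molecules act on T cells together with costimulatory and inhibitory surface proteins, of which 5 had values. In culture 2 rose and 1 fell, where 7.96% of all genes rose and 32.6% fell. In marrow 2 rose, where 6.7% of all genes did. The genes that rose encode the inhibitory PD-1 ligands. Cd274 (PD-L1) rose by 2.78 and 2.16, and Pdcd1lg2 (PD-L2) went from 0 to 1 reads in culture controls to 103 to 174 with IL4 and rose by 2.22 in marrow. Icosl went from 7 to 30 reads in culture controls to 0 to 1 with IL4. The activating ligand Cd86 did not pass the test in either experiment. CD74 is also a surface receptor of the cytokine MIF, and of 4 measured genes of that route, Cxcr4 fell by 1.32 in culture and rose by 0.40 in marrow, a call that 9 of 12 alternatives lost.

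Markers of other cells that can carry class II genes also moved with IL4. Over all genes, 7.96% rose and 32.6% fell in culture, and 6.7% rose and 11.5% fell in marrow. B cells express class II genes at rest, and all 4 measured B cell markers fell in marrow (Cd79b -1.47, Cd22 -1.13, Blnk -2.84 and Cd72 -3.02), with their sum going from 23.8 to 25.9 reads per 100000 in controls to 5.45 to 9.07 with IL4. The Cd22 call was lost in 3 of 6 fits that left out 1 library (without IL4 2, control 2 or control 3). In culture 2 of these markers rose (Cd22, and Blnk, whose call 5 of 8 fits that left out 1 library lost) and 1 fell (Cd79b), with sums of 31.1 to 50.9 in controls and 49.1 to 61.4 with IL4. Blnk (83 to 179 reads) and Cd72 (81 to 251 reads) were well detected in the cultured macrophages, so neither marks B cells alone here. Of 17 listed dendritic cell markers only 8 were measured. In marrow 1 rose (Mgl2, from 1 to 6 reads to 131 to 274) and 3 fell (Irf4, Irf8 and Cd24a). The sum of the 8 was 234 to 256 in marrow controls, where Cd24a alone had 740 to 941 reads, and 175 to 196 with IL4. In culture 4 dendritic markers rose and 3 fell, with sums of 339 to 438 and 565 to 637. Mgl2 went from 0 reads in all 4 culture controls to 344 to 592 with IL4, so it does not mark dendritic cells alone here. The 5 monocyte markers summed to 470 to 638 reads per 100000 in marrow controls and 32.5 to 63.3 with IL4, and 4 of them fell. In culture they summed to 114 to 214 in controls and 410 to 521 with IL4. Only 1 rose there, Fn1, from 214 to 456 reads to 2123 to 3528, while 3 fell (Ccr2, F13a1 and Vcan). Of 11 macrophage markers 6 rose and 3 fell in marrow, and 1 rose and 8 fell in culture. The part of cell makeup in the class II responses was not tested.

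The fold in the authors' deposited table for marrow equals the ratio of the log2 means taken back to a linear scale: 2.77 for Cd74, 2.61 for H2-Aa, 1.66 for Ciita and 0.859 for Ifi30. In the authors' deposited table for culture it is 1.49, 1.81, 1.95 and 1.15, which equals what a second log2 of the log2 values gives, so Ciita appears there as the most changed of the 4 genes and Cd74 as less changed than H2-Aa. The q-values in the authors' deposited table for culture were 0.00878, 0.0153, 0.0209 and 0.00228 in the same order of genes, and in that for marrow 0.123, 0.0685, 0.551 and 0.600. At 0.05 the authors' values thus call the same 4 genes in culture and none in marrow, where limma called Cd74 and H2-Aa.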

How the data were processed

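Values were taken from 2 deposited tables, 1 per experiment, each with 9474 genes. Reads were handled with bcl2fastq and TopHat2 2.0.13 against mm10, per the submitters' processing notes; for counting, strand and normalization, the method is not given in the sources used here. The deposited library values are on a log2 scale; they fit the log2 of whole reads plus 0.5, with a constant for each gene and each library. Reads solved from them left a residual of at most 0.000697 (log2) for values under 100 reads; 61 genes stayed unsolved. The deposited fold and the deposited p-values and q-values are the authors' own and entered no test.

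Each table was fitted with limma 3.58.1 (R 4.3.3), with a variance trend, on the log2 values of its own libraries. The difference of the responses was an interaction over the 14 libraries. P-values were adjusted by Benjamini-Hochberg over all 9474 genes. Pairs of genes were tested with exact permutation over libraries (two-sided, scipy 1.17.1). The limma fit of IL4 against control was checked on simulated reads of equal depth. The interaction and the permutation tests were not checked in this way. Replicate numbers were not used to pair libraries, since no label states a pairing. The deviations of same-numbered libraries correlated from -0.0645 to 0.0409 in culture and 0.0256 to 0.0981 in marrow. Those of differently numbered libraries correlated from -0.0516 to 0.0609 in culture and -0.0628 to 0.0191 in marrow. In marrow every same-numbered pair was thus above all other pairs, and whether the numbers mark pairs was not tested.

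The members, the 16 gene lists (183 genes, 119 measured) and the tests were chosen with earlier results of these data known. Named were the 4 genes, the called genes of the 5 class II lists, the 3 called genes of smallest p in each other list, the called markers, and for each member the 5 genes of most similar pattern; other genes of the class II stretch of chromosome 17, and Retnla as a check, were named after their values were seen. Some genes that this rule takes are not reported here. Alternatives were centring, quantile normalization, no variance trend, leaving out the lowest 25% of genes, a replicate block, limma voom on recovered reads, a z test of the within-table fold changes, and leaving out each library. Marchf1 and similar newer symbols were searched beside the older ones.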

Additional observations from a re-analysis of the deposited data

Results flagged for a closer look

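The genes named above, with the called markers, gave 2 kinds of result to look at again. First, the highest library of a culture group stood apart from the other 3 by more than the 95% limit of Dixon's ratio in 2 of 16 groups checked (8 class II route genes in both culture groups): H2-Ab1 in IL4 library 4, at a log2 value of 9.424, and H2-DMa in the same library, at 6.074. Chance alone passes that limit in about 1 in 20 groups, and the 16 groups share libraries.

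Second, the response to IL4 differed between culture and marrow (limma interaction, adjusted p below 0.05) for 48 of the 74 genes named, beside 23.1% of all genes. Most of the 74 were named because they were called in culture or marrow, so the count is raised by that choice. The values here are culture minus marrow log2 fold changes. On the class II route they were 2.43 for H2-Aa, 2.66 for H2-Ab1, 2.14 for H2-Eb1, 2.45 for Cd74, 1.62 for H2-DMa and 1.48 for H2-DMb1. Among the transcription genes they were -0.92 for Ep300, -1.60 for Irf1, 4.87 for Irf4 and 1.37 for Irf8. Among endosomal genes they were 1.41 for Ifi30, 2.65 for Ctss, 0.87 for Ctsb, -1.40 for Ctsd, 1.33 for Ctsh, 1.11 for Ctsz and 1.14 for Cst3. The turnover genes March8 and Cd83 gave 0.89 and -2.31.

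On the class I route the difference was -2.68 for Nlrc5, 1.39 for H2-T23, -1.14 for H2-K1 and -1.76 for H2-Q4. Pdcd1lg2 gave 5.42 and Icosl -5.39, and Cxcr4 gave -1.71. On the interferon gamma route it was 2.20 for Gbp2, -1.62 for Ifngr1 and 2.34 for Gbp3. The IL4 targets Retnla and Chil3 gave 1.98 and 9.63. Retnla had 0 reads in all controls, so its value depends on the 0.5 added to the reads. Chil3 had 2 to 6 reads in culture controls and 2205 to 2739 in marrow controls. With IL4 it had 15897 to 27681 reads in culture and 15723 to 24205 in marrow. Its difference thus lay mainly in the control levels.

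Of the macrophage markers, Emr1 gave -1.98, Cd68 1.24, Mertk -5.37, C1qa -5.05, C1qb -4.84, C1qc -4.93 and Siglec1 -3.94. The complement genes C1qa, C1qb and C1qc had log2 changes of -2.28, -1.40 and -1.45 in culture and 2.77, 3.44 and 3.49 in marrow, all called. Of the dendritic cell markers, Itgax gave 4.12, Mgl2 3.93 (0 reads in all culture controls), Bst2 -1.12 and Sirpa -0.84. The B cell markers Cd22, Blnk and Cd72 gave 2.65, 3.22 and 3.44. The monocyte markers Fn1 and S100a4 gave 7.30 and 1.42, and the lymphocyte gene Il7r gave 5.06. The S100a4 difference was lost in 8 of 14 fits that left out 1 library, that of March8 in 3, that of Gbp2 in 1, and that of Bst2 in 1 and on centring. Itgax moved to 4.98 without culture control 4 and to 3.38 without culture control 2, Mertk to -6.33 without marrow control 1, Cd83 to -2.95 and Mgl2 to 4.53 without marrow control 2.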

How the results depend on the processing

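In culture the 4 genes kept direction and call under all 15 alternatives run, from 3.59 to 4.39 for Cd74, 3.50 to 4.37 for H2-Aa, 2.31 to 3.04 for Ciita and 1.10 to 1.56 for Ifi30 (log2). In marrow Cd74 (1.11 to 1.74) and H2-Aa (1.18 to 1.51) kept theirs under all 12, and Ciita (0.21 to 1.15) and Ifi30 (-0.41 to -0.08) were called under none. The difference for Ciita, not called in the reported fit, ranged from 1.50 to 2.44 when 1 library was left out and was called at 1.93 without both culture libraries numbered 4 (an alternative chosen after seeing the data), at 2.28 without culture control 4 and at 2.44 without marrow IL4 library 2 (limma adjusted p 0.0351, 0.0252 and 0.0265). A z test of the within-table fold changes called it too, at 1.92 (adjusted p 0.0137, against 0.0721 by the limma interaction). That test takes its p from the normal distribution and its standard errors from each table apart. It called 3005 genes, against 2186 by the interaction. The part of these settings in the Ciita call was not tested. Leaving out 1 library gave 2995 to 4004 called genes in culture (3838 with all), 1104 to 1460 in marrow (1721) and 1792 to 2589 for the difference (2186). In marrow the count fell to 1147 without control 2 and to 1104 without control 3, with fewer libraries in the fit.

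Centring split the calls into 1365 higher and 1205 lower in culture, 895 and 845 in marrow (635 and 1086 as reported) and 889 and 900 for the difference (611 and 1575); quantile normalization gave 1271 and 1324, 806 and 887, and 861 and 914. A replicate block, a pairing that no label states, gave 3447 calls in culture and 1764 in marrow and changed no call of the 4 genes (marrow Ciita adjusted p 0.081). Ciita had the fewest reads of the 4 genes, 7 to 44 outside the IL4 cultures. The part of depth in its wide marrow interval was not tested. Counting error alone is not a measure of the spread between libraries.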

Other observations

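Other called markers had these log2 changes. In culture they were -0.96 for the growth factor receptor Csf1r and -2.91 for the Fc receptor Fcgr1, and in marrow -1.17 for Csf1r, -2.70 for Fcgr1 and 1.13 for Vcam1. The monocyte genes Ccr2 and F13a1 were at -3.63 and -2.39 in culture and at -3.92 and -4.27 in marrow, and Vcan was at -2.04 in culture. The lectin gene Clec10a was at 2.74 and Cd247 at -1.81 in culture, and Cd24a at -0.94 and the neutrophil granule gene Ngp at -0.89 in marrow. Of these marrow calls, fits that left out 1 library lost Csf1r without control 2 or control 3, Vcam1 without control 1, and Ngp without control 1 or IL4 library 3. Ccr2 moved to -2.99 without culture IL4 library 2 and to -4.27 without culture IL4 library 4. S100a9 had 0 to 15 reads in culture controls and none with IL4, a call lost in 7 of 8 fits that left out 1 library. Cish, a feedback inhibitor that cytokines induce, rose by 5.26 in culture and 3.64 in marrow.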
